A study of Mus musculus with 6 samples.

Results

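The neuronal immediate early genes are genes whose transcription rises rapidly with neuronal activity, before any new protein is made. The members were named for their known induction by activity and matched to the gene tables by identifier. They are *Fos*, *Fosb*, *Junb*, *Egr1*, *Egr2*, *Egr4*, *Arc*, *Npas4*, *Nr4a1* and *Dusp1*. These 10 of the 56923 genes listed were all found, and all 10 passed the filter on low counts with 19084 genes in all. RNA was sequenced from the prefrontal cortex of *Pla2g4e* KO mice (3 libraries) and of wild-type mice (WT, 3 libraries), without a stimulus or treatment in the labels. *Pla2g4e* encodes a calcium-dependent enzyme that makes N-acylphosphatidylethanolamines in membranes. The KO mice carried the constitutive *Pla2g4e* tm2a allele on a C57BL/6N-A tm1Brd background. The study describes this allele as predicted to be null, with the transcript trapped by splicing to a LacZ cassette, and used WT littermates as controls. The labels give no age, sex, litter or batch for a library, and they do not say that each library came from a separate animal, so p-values measure the spread between these libraries only.

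In a resting neuron most of these genes are transcribed little. Calcium that enters through NMDA receptors and voltage-gated channels activates kinases, which phosphorylate CREB at cyclic AMP response elements and the ELK and SRF factors at CArG boxes, and promoters that are already loaded with polymerase then fire. Fos, Fosb, Junb, the Egr proteins, Npas4 and Nr4a1 are transcription factors that switch on a later set of genes, whereas Arc acts at the synapse and Dusp1 switches the kinases off again. The messengers decay quickly, so their level in a dissected cortex can reflect what the animal experienced shortly before death. In bulk tissue, fewer cells that express a gene and less RNA in each cell cannot be told apart.

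Library totals were 11792463 to 14594230 fragments, and the members took 92 to 4366 fragments each in a library. *Pla2g4e* itself was still counted in the KO libraries, at 5.95, 8.12 and 7.97 CPM (fragments per 1000000 after TMM scaling of the library totals) against 7.84, 11.3 and 13.2 CPM in the libraries labelled WT replicates 1 to 3. The library labelled WT replicate 1 thus lay within the KO range, and counts summed over a whole gene do not separate trapped from normal transcripts. The X-inactivation transcript *Xist* was high in both replicate 1 libraries, with 1387 CPM (KO) and 969 CPM (WT). The other 4 had at most 0.246 CPM of it and were the libraries with Y-linked expression. All 12 neuronal and all 10 cortical excitatory neuron markers were detected and tested.

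The promoters of the members that could be read share the letters of the core of a cyclic AMP response element. In the RefSeq promoter table (GRCm38.p6), 8 of the 10 members had an entry, and *Egr1* and *Arc* had none. The 250 bases before each start site were searched on both strands for exact matches, and elements farther away were not searched. The core of the element, TGACG, was found in 8 of these 8 members, against 19.8% of the 27025 genes in the table. The full palindrome TGACGTCA, which contains the core, was found in *Dusp1* and in 1.77% of all genes. A CArG box, the binding sequence of SRF, was found in *Egr2* and in 1.62% of all genes. The AP-1 site TGANTCA, through which Fos and Jun proteins act, was found in 0 of 8 members and in 7.82% of all genes, and the Egr site GCGTGGGCG was found in 0 of 8 members and in 0.622% of all genes. A TATAAA element was found in *Fos* and in 14.3% of all genes. A match describes the letters and is neither a binding site nor a cause of the values below. The windows that hold the matches are shown for 6 members because they carry these elements in different arrangements, 5′ to 3′ on the strand of the gene, with the matches to the elements in capitals and 12 bases on each side.
Fos (chr12:85473749-85473874, plus strand, 2 cores and a TATAAA): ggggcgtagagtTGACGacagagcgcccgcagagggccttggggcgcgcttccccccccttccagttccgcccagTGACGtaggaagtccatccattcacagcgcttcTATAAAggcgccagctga
Fosb (chr7:19310089-19310117, minus strand, 1 core): tggagttgcgggTGACGcaagcgcggggg
Egr2 (chr10:67537746-67537830, plus strand, a CArG box between 2 cores in opposite directions): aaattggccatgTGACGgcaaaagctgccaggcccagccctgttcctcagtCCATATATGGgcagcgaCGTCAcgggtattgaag
Egr4 (chr6:85513682-85513778, minus strand, 2 cores on the opposite strand): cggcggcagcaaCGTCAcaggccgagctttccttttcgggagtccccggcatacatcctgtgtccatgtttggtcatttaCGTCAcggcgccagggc
Npas4 (chr19:4990124-4990162, minus strand, 2 cores in opposite directions): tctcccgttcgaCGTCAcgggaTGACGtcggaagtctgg
Dusp1 (chr17:26508596-26508675, minus strand, a core and the full palindrome): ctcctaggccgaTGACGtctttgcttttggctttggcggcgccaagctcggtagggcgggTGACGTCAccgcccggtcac
*Nr4a1* held 4 cores, at 233, 213, 69 and 40 bases before its start, and *Junb* held 1 at 106 bases. *Egr2* had 5 start sites in the table, so it had more chances of a match than a gene with 1.

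Levels between genes were compared per kilobase of exon (FPKM), as the mean ± SD of the 6 libraries. *Egr1*, a zinc finger factor with high expression in resting cortex, was at 64.9 ± 9.38 FPKM and *Arc* at 59.2 ± 16.4 FPKM. *Nr4a1* followed at 31.3 ± 7.63 and *Junb* at 23.4 ± 6.33 FPKM. *Egr4* was at 12.8 ± 2.85, *Fos* at 11.3 ± 4.98, *Npas4* at 9.79 ± 3.09 and *Dusp1* at 8.75 ± 3.13 FPKM. *Fosb* at 3.99 ± 0.858 and *Egr2* at 2.74 ± 0.589 FPKM were the lowest of the members. The ranges of all 9 neighbouring pairs in this order overlapped across the 6 libraries, so the order is firm only between genes that lie well apart in it.

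**Figure D1:**
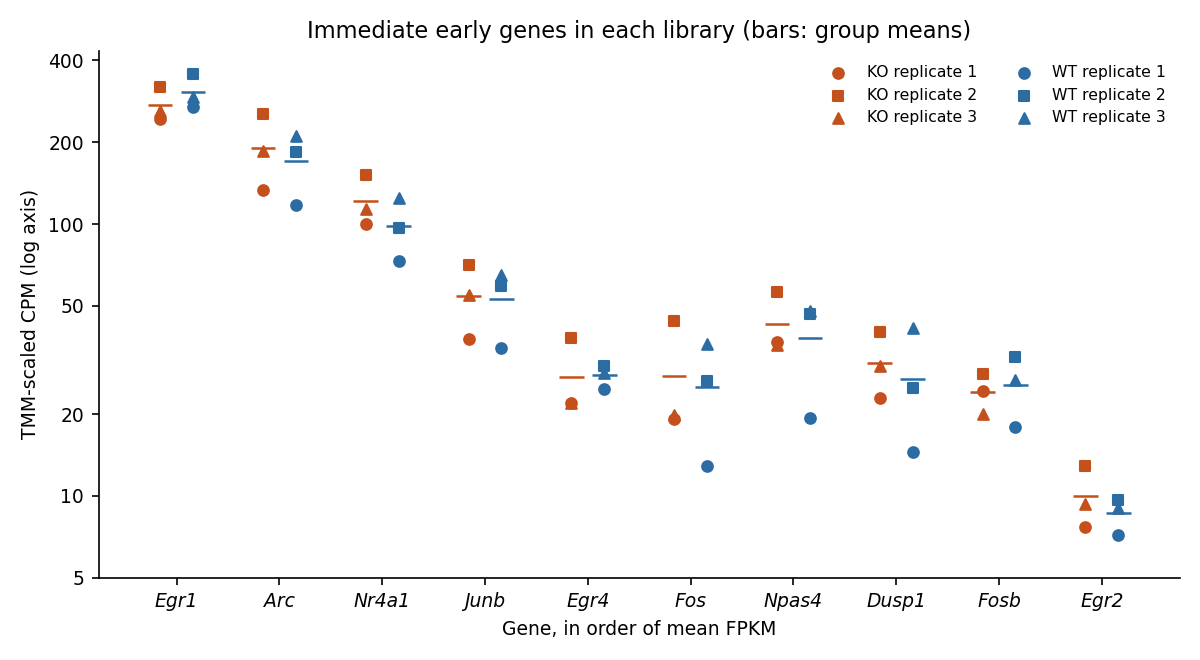
TMM-scaled CPM (log axis) of each immediate early gene in each KO and WT library, with horizontal bars at the group means and marker shapes for the replicate number. For every gene the KO and WT points overlap, and the points of a group spread more widely than the group means differ, as for *Fos*, which ran from 12.9 to 44.1 CPM.

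The first question was whether the members differed between KO and WT. None of the 10 did at an adjusted p under 0.05 in limma-voom, in edgeR or in DESeq2. The share of all 19084 genes called by limma-voom was 0% as well. At an unadjusted p under 0.05 limma-voom called 0 of the 10 members and 7.82% of all genes. That share was 1492 genes, a count that ran from 782 without WT replicate 2 to 2239 without WT replicate 3. KO and WT values did not separate for any member (0 of 10 with groups that do not overlap, against 13% of all genes). Of the members, 7 of 10 were higher on average in KO and 3 were lower, where 51.9% of all genes had a log2 fold change above 0. The median log2 fold change (KO against WT) was 0.13 over the members and 0.0085 over all genes tested.

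Among the AP-1 subunits, *Fos* was at 19.2, 44.1 and 19.8 CPM in KO replicates 1 to 3 and at 12.9, 26.5 and 36.3 CPM in the libraries labelled WT replicates 1 to 3. The WT libraries of this gene enclosed 2 of the KO libraries, and KO replicate 2 stood above all the others. Its log2 fold change was 0.12 (SE 0.35, adjusted p = 0.942, limma-voom with Benjamini-Hochberg adjustment). *Fosb*, a slower partner whose truncated form builds up with repeated stimulation, was at 24.3, 28.1 and 19.99 CPM in KO and at 17.95, 32.5 and 26.7 CPM in WT. Both the lowest and the highest library of *Fosb* were therefore labelled WT. The log2 fold change of *Fosb* was -0.06 (SE 0.18, adjusted p = 0.942). *Junb*, a Jun protein that pairs with Fos, was at 37.7, 71.0 and 54.8 CPM in KO and at 35.0, 59.3 and 64.8 CPM in WT, which gave a log2 fold change of 0.03 (SE 0.23, adjusted p = 0.979). In both groups of *Junb* replicate 1 was low and the other 2 libraries were higher. *Junb* shares 3′ sequence with *Prdx2* on the opposite strand in the annotation, and the counting was stranded.

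The Egr family of zinc finger factors couples activity to lasting changes at synapses. *Egr1* was at 245, 320 and 260 CPM in KO and at 269, 357 and 295 CPM in WT. Its libraries differed less than those of any other member, and its fold change of -0.16 on the log2 scale (SE 0.11, adjusted p = 0.699) was the most negative of the 10. *Egr2*, the member with the fewest fragments, was at 7.71, 12.9 and 9.37 CPM in KO and at 7.21, 9.66 and 9.03 CPM in WT. The KO replicate 2 library of *Egr2* was above all WT libraries and the other KO libraries lay among them, with a log2 fold change of 0.17 (SE 0.19, adjusted p = 0.821). *Egr4* was at 21.97, 38.1 and 22.02 CPM in KO and at 24.8, 30.1 and 28.3 CPM in WT. Here the 3 WT libraries lay close together, between 2 low KO libraries and 1 high KO library, and the log2 fold change was -0.08 (SE 0.18, adjusted p = 0.912).

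*Npas4*, a bHLH-PAS factor that in neurons responds to calcium influx almost alone and promotes inhibitory synapses, was at 36.8, 56.2 and 35.9 CPM in KO and at 19.4, 46.6 and 47.9 CPM in WT. The library labelled WT replicate 1 was below every other library of *Npas4*, and the rest of the WT libraries stood between the KO values. Its log2 fold change was 0.25 (SE 0.28, adjusted p = 0.810). *Nr4a1*, an orphan nuclear receptor, was at 100 CPM, 151 CPM and 113 CPM in KO and at 72.9, 96.7 and 125 CPM in WT. It had the largest difference among the members, a log2 fold change of 0.32 (SE 0.17, 95% interval -0.06 to 0.70, unadjusted p = 0.0898, adjusted p = 0.651), that is 1.25-fold higher on average in KO. Of its 3 WT libraries, 2 lay below all KO libraries and WT replicate 3 lay within the KO range. An unnamed gene on the same strand overlaps *Nr4a1* in the annotation, and under the counting options in the file headers a fragment over exons of both was assigned to neither.

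*Arc*, which encodes a capsid-forming protein that removes AMPA receptors from the synaptic membrane, was at 134, 254 and 185 CPM in KO and at 118, 184 and 211 CPM in WT. In both groups replicate 1 was the lowest library of *Arc*. The log2 fold change was 0.15 (SE 0.22, adjusted p = 0.863). *Dusp1*, the phosphatase that inactivates MAP kinases and so ends the response, was at 23.0, 40.0 and 29.99 CPM in KO and at 14.5, 25.0 and 41.4 CPM in WT. The WT libraries of *Dusp1* spanned the whole KO range on both sides, with a log2 fold change of 0.27 (SE 0.29, adjusted p = 0.805). *Dusp1* spans a long gene model in this annotation that reaches into *Ergic1* on the opposite strand.

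The sign of most fold changes depended on single libraries. Without the library labelled WT replicate 1, 2 of the 10 members were higher in KO, and the log2 fold change was -0.31 for *Fos*, -0.18 for *Npas4* and -0.12 for *Dusp1*. Without KO replicate 2, 3 of the 10 were higher in KO, and *Egr4* was at -0.34 (unadjusted p = 0.0138, adjusted p = 0.664). Only *Egr1* (-0.28 to -0.05) and *Nr4a1* (0.12 to 0.51) kept their sign in each fit that left out 1 of the 6 libraries. In the 4 libraries with Y-linked expression alone, 2 KO and 2 WT, 5 of the 10 members were higher in KO and *Fos* was at -0.09. For *Fos* the error from counting fragments was 0.085 on the log2 scale and the SD between libraries of a group was 0.72, and for *Egr2* they were 0.13 and 0.30.

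**Figure D2:**
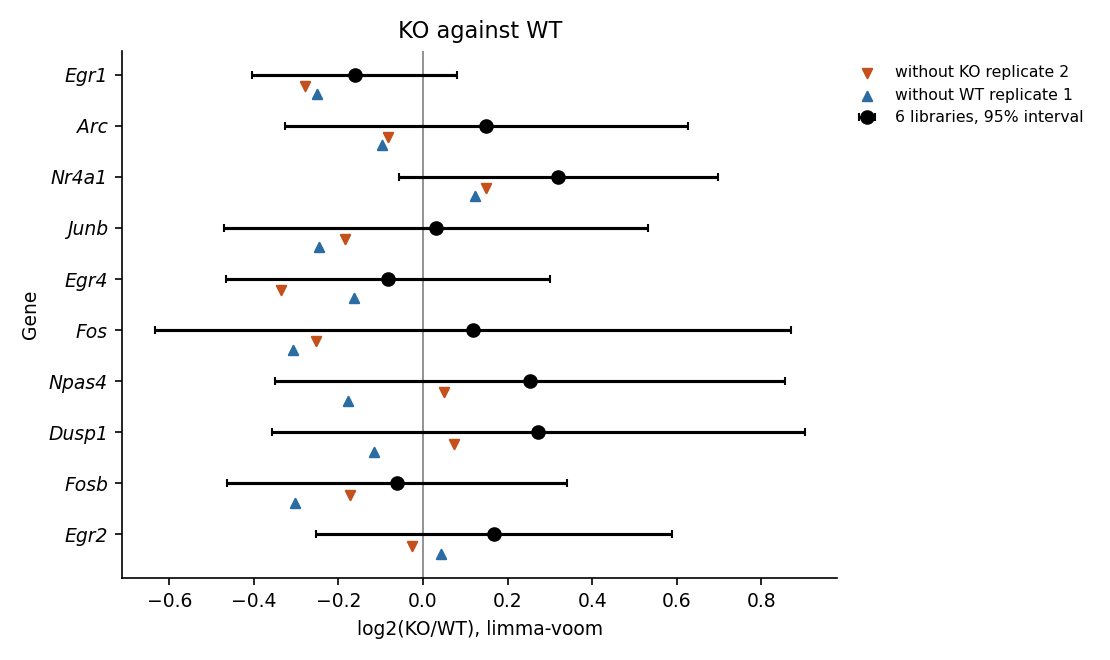
Log2 fold change (KO against WT, limma-voom) of each member with its 95% interval (black), and the value without KO replicate 2 (orange) or without the library labelled WT replicate 1 (blue). All 10 intervals include 0, and leaving out either library moved most members to the left, as for *Fos* from 0.12 to -0.25 and -0.31.

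The members differed between libraries of the same genotype more than most genes did. The within-group SD of log2 CPM had a median of 0.401 over the members and of 0.137 over the 15523 genes whose mean log2 CPM was 0 or more. *Fos* had an SD of 0.72, above 99.0% of those genes. *Dusp1* with 0.60 and *Npas4* with 0.58 were above 97.9% and 97.6% of them. *Junb* (0.47) and *Arc* (0.45) lay above 94.6% and 93.7%, so that 5 of the 10 members were in the top 10% of this ranking. *Fosb* (0.35), *Nr4a1* (0.35), *Egr4* (0.34) and *Egr2* (0.30) were above 83.6% to 87.8%. *Egr1*, the most abundant member, had the smallest SD, 0.21, above 69.3% of genes. Within WT alone, the highest library exceeded the lowest by 2.85-fold for *Dusp1*, 2.81-fold for *Fos* and 2.46-fold for *Npas4*, against 1.33-fold for *Egr1* and 1.21-fold for *Egr4*. Within KO the widest ratio was 2.30-fold, for *Fos*. The SD from counting alone was 0.024 for *Egr1* and 0.13 for *Egr2*, the extremes among the members, and was below the observed SD for each of them. The members were picked as inducible genes, so their place in this ranking is a description.

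**Figure D3:**
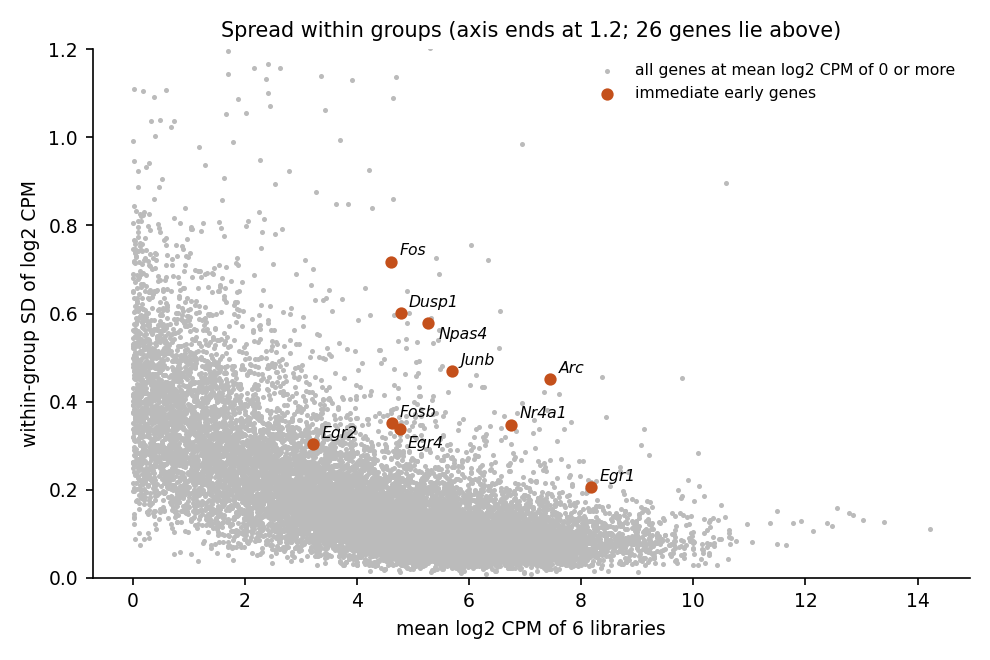
Within-group SD of log2 CPM (pooled over KO and WT) against the mean log2 CPM for 15523 genes (grey) and the immediate early genes (orange), with 26 genes above the end of the axis. The members lie above the bulk of genes of like expression, from *Fos* at 0.72 down to *Egr1* at 0.21.

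KO replicate 2 was the highest library for 7 of the 10 members, and the library labelled WT replicate 1 was the lowest for 8. The other highest values were those of WT replicate 2 for *Fosb* and *Egr1* and of WT replicate 3 for *Dusp1*, and the other lowest values were those of KO replicate 1 for *Egr1* and *Egr4*. The mean deviation of the members from their 6-library mean, in log2 CPM, was -0.24, 0.48 and -0.07 for KO replicates 1 to 3 and -0.55, 0.13 and 0.25 in the libraries labelled WT replicates 1 to 3. *Fos* itself was 3.41-fold higher in KO replicate 2 than in the library labelled WT replicate 1, *Npas4* was 2.89-fold and *Dusp1* 2.75-fold higher, while *Egr1* was 1.19-fold higher. The 2 libraries with *Xist* had the 2 lowest means, 1 in each genotype. All 10 members were lowest in 1 of these 2 libraries, and for 5 of the 10 these 2 libraries did not overlap the 4 others. The share of all genes split in this way was not computed, and the members varied together, so these counts are a description. Each group held 1 library with *Xist*, and the part of sex in this spread was not tested.

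All 45 pairs of members had a positive Pearson correlation of log2 CPM over the 6 libraries. The median r was 0.801 (range 0.277 to 0.983), and the median Spearman rho was 0.771. Across all 182089986 pairs of tested genes the median r was 0, and 3.53% of those pairs reached an r of 0.8, which 51.1% of the member pairs did. An r of 0.9 was reached by 0.981% of all pairs and by 10 of the 45 member pairs. On deviations from the group means, which take out any difference between KO and WT, the median r was 0.831. Without the 2 libraries farthest from the median of the first gene of each pair the median r was 0.651, and 45 of the 45 pairs were still above 0. Within the 4 libraries with Y-linked expression it was 0.726. Single pairs depended on single libraries. Without the library labelled WT replicate 1 the median r was 0.781 and 44 of the 45 pairs were above 0, and the r of *Fosb* with *Nr4a1* was -0.020 and that of *Fosb* with *Dusp1* 0.041. Without KO replicate 2 the median r was 0.738 and 45 of the 45 were above 0, and *Egr1* with *Nr4a1* had an r of 0.050. With 6 libraries the smallest p that an exact permutation test of r over the 720 orders can give is 0.00139. By this two-sided exact test 22 of the 45 pairs had an unadjusted p under 0.05 and 0 had an adjusted p under 0.05, the lowest being 0.0521.

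The closest pair was *Junb* with *Arc* (r = 0.983), followed by *Nr4a1* with *Dusp1* (r = 0.955) and *Fos* with *Arc* (r = 0.935). The loosest were *Egr1* with *Nr4a1* (r = 0.277), *Egr1* with *Dusp1* (r = 0.334) and *Fosb* with *Nr4a1* (r = 0.510). Within the Egr family, *Egr1* and *Egr4* had an r of 0.808 with each other. Correlated with the mean of the other 9 members, *Fos* had the highest r (0.968) and *Egr1* the lowest (0.643), and the other 8 lay between 0.740 for *Fosb* and 0.954 for *Arc*. *Fos* and *Junb* put the 6 libraries in the same order (rho = 1).

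**Figure D4:**
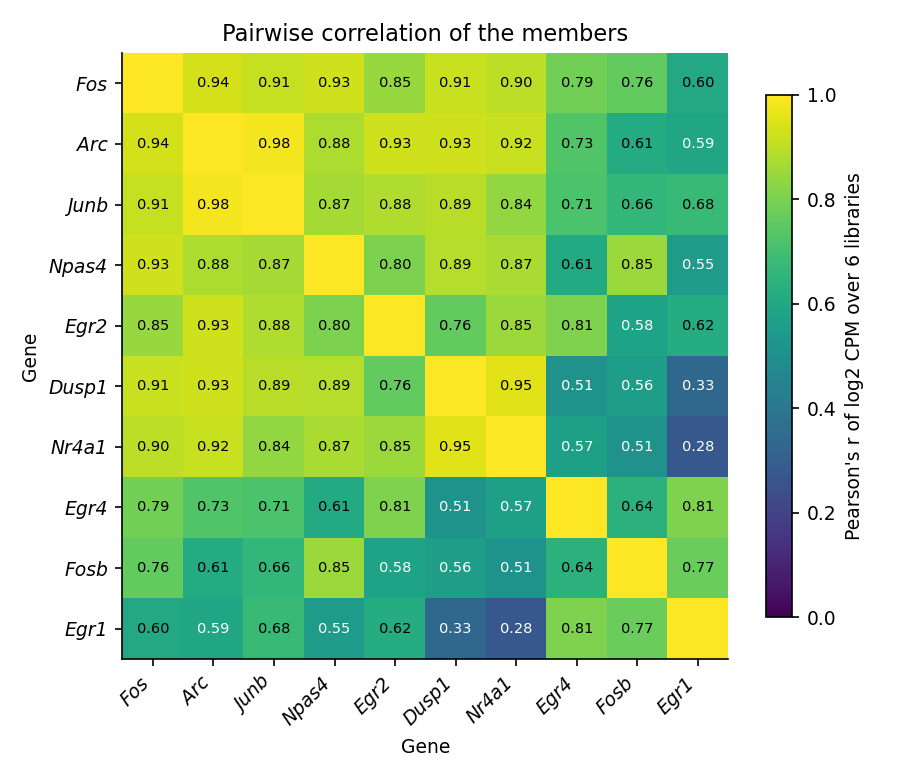
Pearson's r of TMM-scaled log2 CPM over the 6 libraries for each pair of members, ordered by their correlation with the mean of the other members. The pairs among *Fos*, *Arc*, *Junb* and *Npas4* are high, and the rows of *Egr1* hold the lowest values, down to 0.277 with *Nr4a1*.

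By the rule of highest r with the mean standardized profile of the members, the most alike of the 12458 genes whose mean log2 CPM was 2 or more were *Nelfb* (r = 0.991), *Cib1* (0.989), *Zbtb38* (0.985), *B3gat2* (0.985) and *Ppp1r3f* (0.984). Their swings were smaller than those of most members. *Nelfb*, a subunit of the complex that holds polymerase paused near the start site, ran from 37.2 CPM in the library labelled WT replicate 1 to 45.5 CPM in KO replicate 2 (within-group SD 0.12). With so many genes and 6 libraries high values arise in number, and 121 of the 12458 genes (0.971%) reached an r of 0.9.

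Other genes of the activity response were read from lists of known roles, 78 of whose 79 genes were tested. At an adjusted p under 0.05 limma-voom called 0 of the 78, and at an unadjusted p under 0.05 it called 11, against 7.82% of all genes. With any 1 library left out, the count of 11 became 5 to 18. The 5 came without WT replicate 1, where 1019 of 18944 genes were called. The 18 came without WT replicate 3, where 2239 of 18931 genes were called. Of 18 other rapidly induced transcription factors, 1 was higher and 1 lower in KO at an unadjusted p under 0.05. *Jun*, the partner of Fos, was at 44.4, 49.9 and 43.5 CPM in KO and at 36.0, 41.7 and 40.6 CPM in WT (log2 fold change 0.22, unadjusted p = 0.0285, adjusted p = 0.635). *Klf6* had a log2 fold change of -0.23 (unadjusted p = 0.0473, adjusted p = 0.635). *Jund*, at -0.12, and *Egr3*, at -0.20, had unadjusted p of 0.0846 and 0.0858. Like the members, the list was highest in KO replicate 2, with a mean deviation of 0.36, and lowest in the replicate 1 libraries of KO and WT, at -0.24 and -0.16. Of the 18, 15 had a positive r with the profile of the members, and *Egr3* had an r of -0.29, unlike the other Egr genes.

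Of 20 rapidly induced signalling regulators, 2 were higher and 1 lower at an unadjusted p under 0.05. In limma-voom these were the clock repressor *Per1* (log2 fold change 0.20, unadjusted p = 0.0319), the messenger-decay factor *Zfp36* (0.60, unadjusted p = 0.0395) and the phosphatase *Dusp14* (-0.27, unadjusted p = 0.0168), each with an adjusted p = 0.635. *Homer1*, a scaffold of the postsynaptic density, had a log2 fold change of -0.22 (unadjusted p = 0.0855). Counts were summed over the whole gene, so the transcripts of *Homer1* were not separated. The mean deviations of the list were between -0.07 and 0.03, and 10 of its 20 genes had a positive r with the members' profile.

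The 12 delayed effectors, which are induced later and last longer, ran opposite to the members across libraries. Of the 12, 12 had a negative r with the members' profile, with a median of -0.62, where 9530 of all 19084 genes were negative. Their mean deviation was highest in the library labelled WT replicate 1, at 0.29, where the members were lowest, and was -0.12 in KO replicate 2 and -0.13 in WT replicate 3. Of the 12, 2 were lower in KO at an unadjusted p under 0.05. *Nrn1*, which encodes the neurite growth factor neuritin, was at 137 CPM, 137 CPM and 162 CPM in KO and at 237 CPM, 162 CPM and 159 CPM in WT (log2 fold change -0.33, unadjusted p = 0.0261, adjusted p = 0.635). *Rgs4*, a brake on G protein signalling, had a log2 fold change of -0.19 (unadjusted p = 0.0310, adjusted p = 0.635). The growth factor *Bdnf* was at 23.6, 23.95 and 26.4 CPM in KO and at 38.0, 30.6 and 24.1 CPM in WT (log2 fold change -0.30, unadjusted p = 0.0523), and the neuropeptide precursor *Vgf* had a log2 fold change of -0.29 (unadjusted p = 0.130). For each of these 4 genes the library labelled WT replicate 1 was the highest of all 6.

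Of 28 upstream kinases, transcription factors and their regulators, 3 were higher and 1 lower in KO at an unadjusted p under 0.05. *Cacna1c*, the pore of an L-type calcium channel that signals to the nucleus, was at 196 CPM, 160 CPM and 162 CPM in KO and at 136, 123 and 148 CPM in WT (log2 fold change 0.35, unadjusted p = 0.00256, adjusted p = 0.635). *Mef2c*, an activity-regulated transcription factor, was at 578, 593 and 589 CPM in KO and at 694, 696 and 646 CPM in WT (-0.21, unadjusted p = 0.00340, adjusted p = 0.635). The nuclear kinase *Rps6ka5* (0.30, unadjusted p = 0.0142) and the SRF partner *Elk4* (0.23, unadjusted p = 0.0420) were the others called by limma-voom, each with an adjusted p = 0.635. Groups that did not overlap were found for 5 of the 28 genes of the list, against 13% of all genes. The mean deviation of the list was between -0.05 and 0.04 in each library, and 16 of its 28 genes had a positive r with the members' profile.

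**Figure D5:**
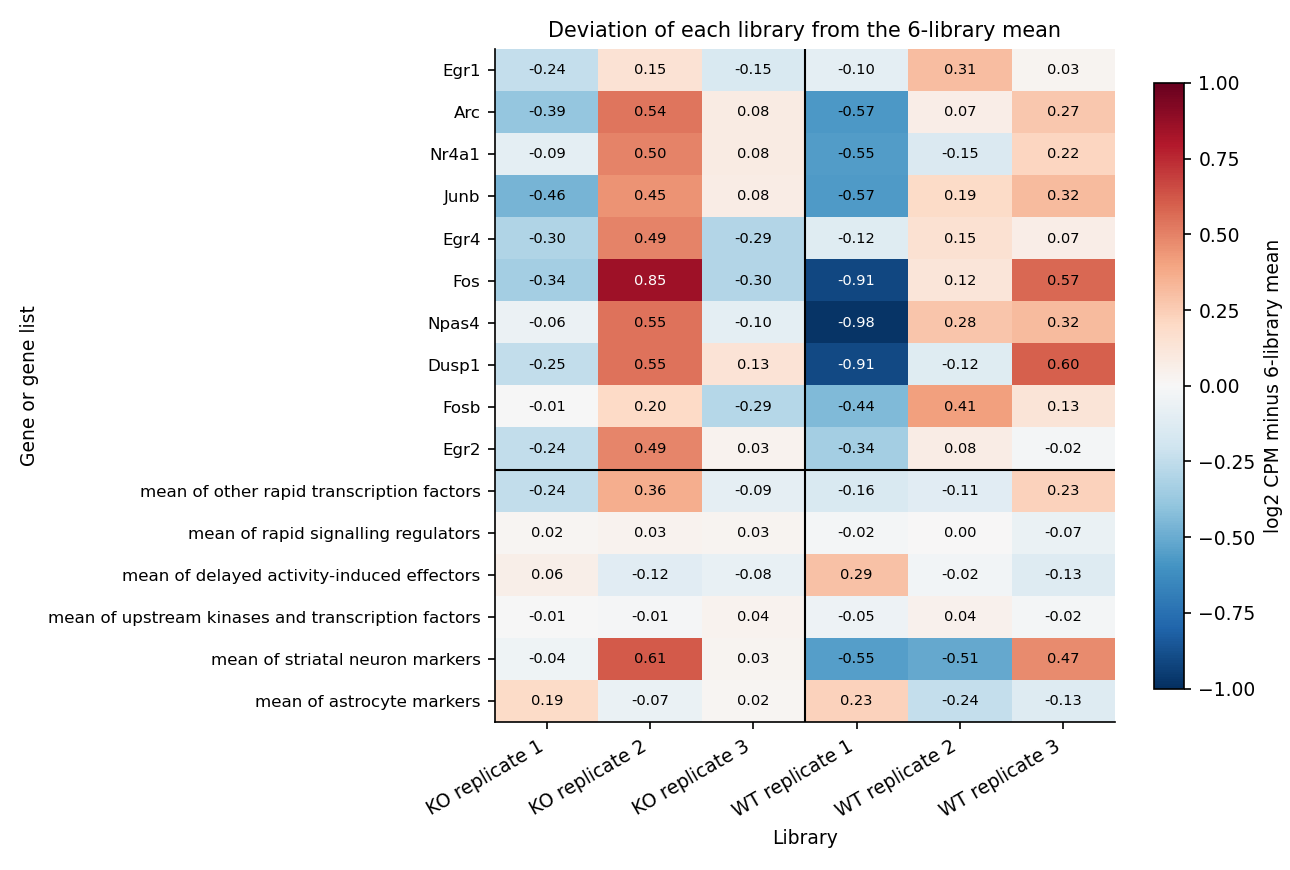
Deviation of each library from the 6-library mean in log2 CPM, for each member (upper rows) and as the mean of 4 lists of related genes and of 2 marker lists (lower rows). KO replicate 2 is high and the library labelled WT replicate 1 low for the members, whereas the delayed effectors are highest in the latter, at 0.29.

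Marker lists differed in how they moved with the members across libraries. The r of a list's mean deviation with that of the members was 0.74 for striatal, 0.63 for blood cell and 0.55 for oligodendrocyte markers. It was -0.80 for astrocyte, -0.81 for microglia, -0.65 for neuron, -0.10 for endothelial and 0.01 for cortical excitatory markers. All 10 striatal neuron markers were detected, and 10 of 10 had a positive r with the members' profile. Their mean deviations were -0.04, 0.61 and 0.03 in KO libraries, against -0.55, -0.51 and 0.47 in WT libraries, and their summed level ran from 350 to 460 CPM in KO and from 262 to 435 CPM in WT. Of the 10 astrocyte markers 1 had a positive r, with mean deviations of 0.19, -0.07 and 0.02 in KO and 0.23, -0.24 and -0.13 in WT and summed levels of 4856 to 5375 CPM and 4587 to 5335 CPM. Of the 10 microglia markers 2 had a positive r, with summed levels of 401 to 432 CPM in KO and 376 to 473 CPM in WT. Of the 10 oligodendrocyte markers 8 had a positive r, with summed levels of 2393 to 2745 CPM in KO and 1866 to 3029 CPM in WT. Of the 7 blood cell markers 7 had a positive r, with summed levels of 35.8 to 62.3 CPM in KO and 39.3 to 60.2 CPM in WT. Of the 10 endothelial markers 5 had a positive r, with summed levels of 252 to 273 CPM in KO and 241 to 301 CPM in WT. Striatal markers and members both had their highest mean deviation in KO replicate 2 and their lowest in the library labelled WT replicate 1. WT replicate 2, with members above their mean at 0.13, had striatal markers nearly as low as the library labelled WT replicate 1. On average 10 of 10 striatal, 10 of 10 astrocyte and 9 of 10 oligodendrocyte markers were higher in KO. Lower on average were 9 of 10 cortical excitatory, 8 of 12 neuron, 8 of 10 endothelial, 6 of 10 microglia and 6 of 7 blood cell markers. In limma-voom 0 of these markers reached an adjusted p under 0.05. At an unadjusted p under 0.05, 3 cortical excitatory, 2 neuron and 1 microglia marker were lower in KO, and 1 striatal and 1 oligodendrocyte marker were higher. Over all genes 7.82% had such a p and 51.9% had a log2 fold change above 0. Whether the region dissected or the mixture of cells had a part in the spread of the members was not tested.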

How the data were processed

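Polyadenylated RNA was made into stranded libraries from prefrontal cortex, and the group and replicate number of each library were taken from its title. The deposited values are raw counts of fragments per gene, which the authors made with FastQC 0.11.8, STAR 2.7.9a and featureCounts 1.6.0 per the submitters' processing notes. Per the file headers, exons of the GENCODE M31 annotation (GRCm39) were counted in pairs and by strand. An earlier build and annotation stand in the study's methods.

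Genes with at least 6 fragments in 1 library were kept (19084 of 56923). As in the study, edgeR, voom and limma were used. Counts were scaled by TMM (edgeR 4.0.16), a scaling chosen here, and tested by voom and limma 3.58.1 in R 4.3.3, KO against WT, two-sided, adjusted by Benjamini-Hochberg over the 19084 genes. FPKM was CPM per kilobase of exon. Correlations used TMM-scaled log2 CPM with exact permutation tests, adjusted over 45 pairs. The fit was tested on simulated data, where it recovered nearly all genes changed by large folds, well above those seen for the members, but made a larger share of false calls than its adjusted threshold allows. The changed genes were drawn at random from the better expressed ones. Recovery for genes as variable between libraries as the members was therefore not measured. Symbols were matched by gene identifier to a GENCODE annotation of the previous build for 52073 genes. Promoter windows came from RefSeq (GRCm38.p6), whose coordinates are not those of the counted genes.

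Named genes were the 10 members and *Pla2g4e*, at most 4 genes of lowest p from each of 4 lists, the 5 genes most like the members' profile, and the 3 highest and 3 lowest pairs. Single genes and libraries mentioned beyond these were chosen after their values were seen. The members and lists were chosen with earlier results of these data known. Alternatives were edgeR's quasi-likelihood test, DESeq2 1.42.0, other scalings and filters, library weights, a replicate block, a Y-linked covariate, the 4 libraries with Y-linked expression, and leaving out each library. Counting error was computed from fragment counts and does not include library preparation.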

Additional observations from a re-analysis of the deposited data

How the results depend on the processing

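No member had an adjusted p under 0.05 in limma-voom or under any of its 16 alternatives. At an unadjusted p under 0.05 between 0 and 2 members were called, beside 696 to 2239 of all genes. The 696 were of 18476 genes, in the 4 libraries with Y-linked expression. The 2239 were of 18931 genes, without WT replicate 3. The number of members higher in KO, 7 with all libraries, was between 2 and 8 with any 1 library left out. Over those 6 fits the log2 fold change ranged from -0.308 to 0.444 for *Fos*, -0.302 to 0.124 for *Fosb*, -0.247 to 0.284 for *Junb*, -0.025 to 0.354 for *Egr2*, -0.336 to 0.058 for *Egr4*, -0.097 to 0.386 for *Arc*, -0.177 to 0.478 for *Npas4* and -0.116 to 0.647 for *Dusp1*, and the median over the members from -0.170 to 0.345. In the 4 libraries with Y-linked expression, *Fos* was at -0.089, *Npas4* at -0.079 and the members' median at -0.0076. *Nr4a1* stayed above 0 and *Egr1* below 0 in all 16. *Nr4a1* had its lowest unadjusted p, 0.00941, with the Y-linked covariate (adjusted p = 0.369, range over the alternatives 0.312 to 0.999). The number of all genes with an adjusted p under 0.05, 0 in limma-voom with all libraries, was 1 in DESeq2, 23 with the Y-linked covariate, 3 in the 4 libraries with Y-linked expression and 0 to 1 with any 1 library left out. Scaling by library totals alone moved the calls at an unadjusted p under 0.05 from 835 higher and 657 lower to 1071 higher and 418 lower, with 7 members still higher. The causes were not tested.

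With the replicate number as a replicate block, 0 members and 0 genes had an adjusted p under 0.05. In limma-voom *Nr4a1* (unadjusted p = 0.0133, adjusted p = 0.493) and *Egr1* (unadjusted p = 0.0294, adjusted p = 0.540) passed only without adjustment. At that unadjusted threshold 1693 of all 19084 genes passed in the same fit. Same-numbered KO and WT libraries had correlations of their deviations of 0.267, 0.059 and -0.020, so the numbers were not taken as pairs. The median r of the member pairs was 0.726 in the 4 libraries with Y-linked expression and 0.738 to 0.842 with any 1 library left out. The median within-group SD of the members was 0.339 to 0.459 in those fits. The effect of depth on the fold changes was not tested.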

Other observations

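Lists of genes that respond to other short-term influences were read in the same way, as counts with limma-voom and as library means. Of 10 glucocorticoid-responsive genes 8 were higher in KO on average and 0 had an unadjusted p under 0.05, and their mean deviation in log2 CPM was 0.73 in KO replicate 1, at most 0.05 in the other 5 libraries and -0.36 in KO replicate 2, where the immediate early genes were highest. Of 10 heat shock chaperones 2 were higher and 8 lower in KO on average, 3 of them lower at an unadjusted p under 0.05 and 0 at an adjusted p under 0.05, and 2 had groups that did not overlap. Of 12 clock genes 7 were higher and 5 lower on average and 0 had an unadjusted p under 0.05. Over all genes 7.82% had an unadjusted p under 0.05 and 13% had groups that did not overlap. Mean deviations lay between -0.15 and 0.15 for the chaperones and between -0.10 and 0.10 for the clock genes, against -0.55 to 0.48 for the members. The median within-group SD of log2 CPM was 0.448 for the glucocorticoid-responsive genes and 0.480 for the striatal neuron markers, above the 0.401 of the members. Time of death is not given in the labels, and its part in these values was not tested.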
